A study of Mus musculus with 6 samples.

Results

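Oxidative phosphorylation genes were followed in long-lived plasma cells, the antibody-secreting cells that persist without dividing in bone marrow. The members were all rows of the deposited gene table whose symbol began with mt-, Nduf, Uqcr, Cox4, Cox5, Cox6, Cox7, Cox8 or Atp5, together with Sdha, Sdhb, Sdhc, Sdhd, Cyc1, Cycs and Uqcc3 and without Cox6a2. They came to 99 of 13642 genes. Of these, 7 were encoded in the mitochondrial genome, where 13 protein genes are annotated. The others of the 13 were not analysed here. A further 80 were nuclear genes for subunits of the respiratory complexes, of ATP synthase or for cytochrome c. The last 12 were nuclear genes for assembly and related factors. The assignment to complexes follows general knowledge of these proteins.

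Oxidative phosphorylation makes ATP in the inner mitochondrial membrane. Complexes I to IV pass electrons from NADH and succinate to oxygen and, except for complex II, pump protons, and complex V, the ATP synthase, uses the proton gradient. Complexes I, III, IV and V combine subunits read from the mitochondrial genome with subunits imported from the cytosol, while complex II is wholly nuclear. Mitochondrial messages are cut from long transcripts of the heavy and the light strand of that genome and share no promoter with the nuclear genes. Antibody-secreting cells spend much ATP on protein synthesis and folding, and depend on mitochondrial pyruvate use to persist.

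The samples were 3 young and 3 old libraries from C57BL/6J mice. Young mice were female, aged 2 to 3 months, from the Jackson Laboratory or a UCLA animal facility, and old mice were male, aged 17 to 19 months, from the National Institute on Aging colony. Age, sex and supplier therefore cannot be told apart. Each group of mice was described as independent, with no statement on pooling, so p-values measure the spread between libraries, which may be partly technical. The sorted cells had high CD138 and no B220, IgD, T cell receptor, CD11b or Gr-1. The study concerned plasma cells in the myeloid shift of ageing marrow, and the comparison asked which oxidative phosphorylation transcripts differed between old and young cells.

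Values are FPKM, fragments per length of gene and per mapped total, and are levels that can be set side by side between genes. From the smallest steps of the values, about 22400000 to 25200000 fragments lay behind the young libraries and 26800000 to 27900000 behind the old ones. The 7 plasma cell markers summed to between 18849 and 22303 FPKM in 5 libraries and to 8554 in old replicate 3, and none was at 0 in any library. Old replicate 3 also had the highest sums for monocyte markers (666 FPKM), erythroid markers (841 FPKM), NK markers (38.7 FPKM) and cycling markers (413 FPKM). Cycling markers summed to 228, 132 and 202 FPKM among young libraries and to 103 and 135 in old replicates 1 and 2. Most of each sum was Mki67, while Cdk1 was at 0 in young replicate 2 and old replicate 1. In bulk RNA, fewer cells of a type and less RNA per cell cannot be told apart. Differences were tested on log2(FPKM + 1) with limma over the 10687 genes averaging at least 1 FPKM, with genes called where the Benjamini-Hochberg adjusted p was under 0.05. Limma called 0 genes, 0.0% of those tested, and 632, or 5.91%, had an unadjusted p under 0.05.

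The mitochondrial messages were among the most abundant transcripts of these cells and stood higher on average in the old libraries, while the nuclear subunits went both ways. Each of the 7 mitochondrial members had a positive log2 change, between 0.06 and 0.68 with a median of 0.41. Among all genes tested, 61.3% had a positive log2 change and the median was 0.23, and 5 of the 7 lay above that median. Without old replicate 1, 3 of the 7 lay above it. Limma called 0 of the 7, and 1, mt-Nd4, had an unadjusted p under 0.05. The groups did not overlap for 2 of the 7, mt-Co1 and mt-Nd1, both with old above young. Of all genes tested, 12.2% did not overlap in either direction and 8.78% had old above young. The direction was not the same under every scaling for mt-Nd6, whose log2 change was -0.045 with median-ratio scaling and -0.14 with quantile normalization.

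Complex IV was represented by mt-Co1, which encodes the catalytic subunit of cytochrome oxidase (chromosome M, 5328 to 6872, plus strand of GRCm38). Its level was 6227, 5367 and 4059 FPKM in young replicates 1 to 3 and 9427, 7220 and 7204 in old replicates 1 to 3. All 3 old libraries lay above all 3 young ones. The log2 change was 0.62 ± 0.28 (SE); its limma adjusted p was 0.839. After quantile normalization mt-Co1 held the same rank in every library and its difference was 0.

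Of the complex I messages, mt-Nd1 encodes a core subunit where the membrane arm meets the quinone site (chromosome M, 2751 to 3707, plus strand). It was at 1762, 1765 and 1747 FPKM among young libraries versus 3079, 1898 and 2199 among old ones. The young values lay very close together, and the lowest old value was just above them. Its log2 change was 0.41 ± 0.27 (SE); its limma adjusted p was 0.848.

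The proton-pumping membrane subunits mt-Nd4 and mt-Nd5 had similar differences with overlapping groups. For mt-Nd4 the young libraries held 2793, 1656 and 1686 FPKM and the old ones 3396, 2743 and 3427, a log2 change of 0.68 ± 0.29 (SE); its limma adjusted p was 0.839. Young replicate 1 was above old replicate 2, and every other young value was below every old one. For mt-Nd5 the values were 2625, 2013 and 1825 against 4172, 2423 and 2959 FPKM.

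The smallest differences were those of mt-Nd2 and mt-Nd6. The membrane subunit mt-Nd2 was at 1844, 1456 and 1458 FPKM among young versus 1803, 1461 and 1951 among old libraries. The light-strand gene mt-Nd6 (chromosome M, 13552 to 14070, minus strand) was at 3601, 3093 and 3893 against 4705, 2570 and 4027 FPKM. Both sets of groups overlapped fully. The end of mt-Nd6 overlaps mt-Nd5 on the other strand. Use of strand in counting was not given in the sources used here, so reads of the pair cannot be told apart there. Whether reads of the other strand over the rest of mt-Nd6 entered its value is also not known.

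Complex III was represented by mt-Cytb, the cytochrome b gene, the only subunit of that complex in the mitochondrial genome (chromosome M, 14145 to 15288, plus strand). Young libraries held 4033, 3407 and 3261 FPKM and old ones 5020, 4801 and 3717. Old replicate 3 lay below young replicate 1, and the log2 change was 0.33 ± 0.26 (SE; limma adjusted p = 0.854). Copies of mitochondrial sequence in the nuclear genome, at 95% identity or more, were annotated for mt-Co1, mt-Nd2, mt-Nd4 and mt-Nd5, and how reads were shared with them is not known.

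**Figure D1:**
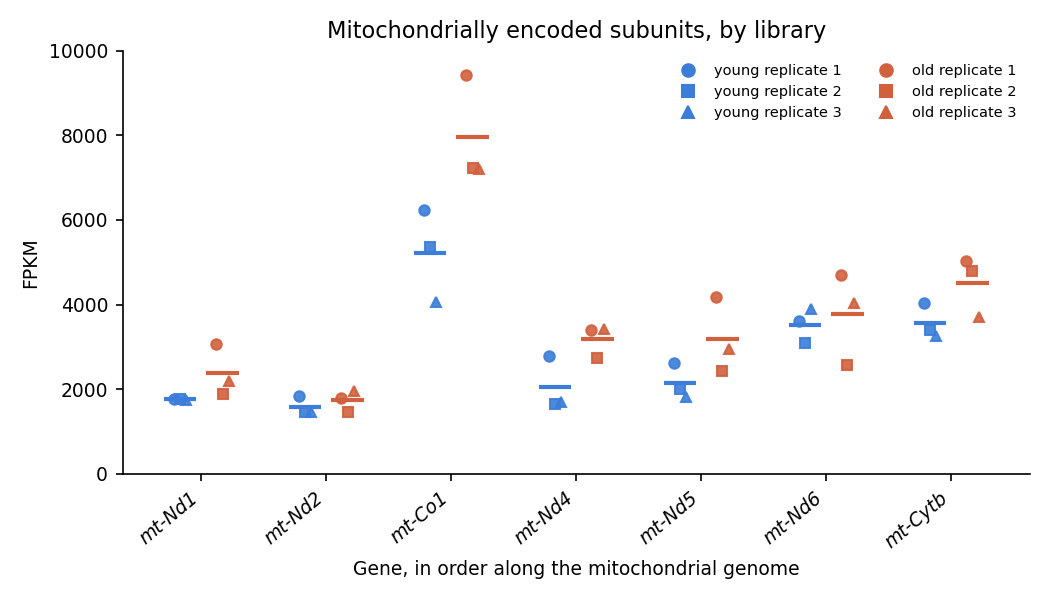
FPKM of the 7 mitochondrially encoded members in each library, in gene order along the mitochondrial genome, one marker a library, bars at group means. The groups stand apart for mt-Co1 (4059 to 6227 young, 7204 to 9427 old) and for mt-Nd1, and overlap for the other genes.

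These 7 genes were measured far above the level of the nuclear members and with less spread. Their spread between replicates, as the SD in percent of the mean within a group, ranged from 0.539% to 31.7% with a median of 15.8%. Over the 26 genes averaging at least 1000 FPKM, the 7 included, the median was 16.0%. Each mitochondrial value rested on roughly 33844 to 390277 fragments, taking gene length as merged exons.

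At this level the mitochondrial genes had the opposite sign to nearly all other genes. Of the other 19 genes averaging at least 1000 FPKM, among them Jchain, B2m, folding enzymes and ribosomal protein genes, 1 had a positive log2 change. Over the 19 the median was -0.25 and the range -0.43 to 0.08. The exception was Ubb, a ubiquitin gene. The set of 19 was looked at after its values were seen. Without old replicate 3, 6 of the 7 and 6 of the 19 were positive, with medians of 0.47 and -0.07. After quantile normalization 5 of the 7 and 5 of the 19 were positive.

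**Figure D2:**
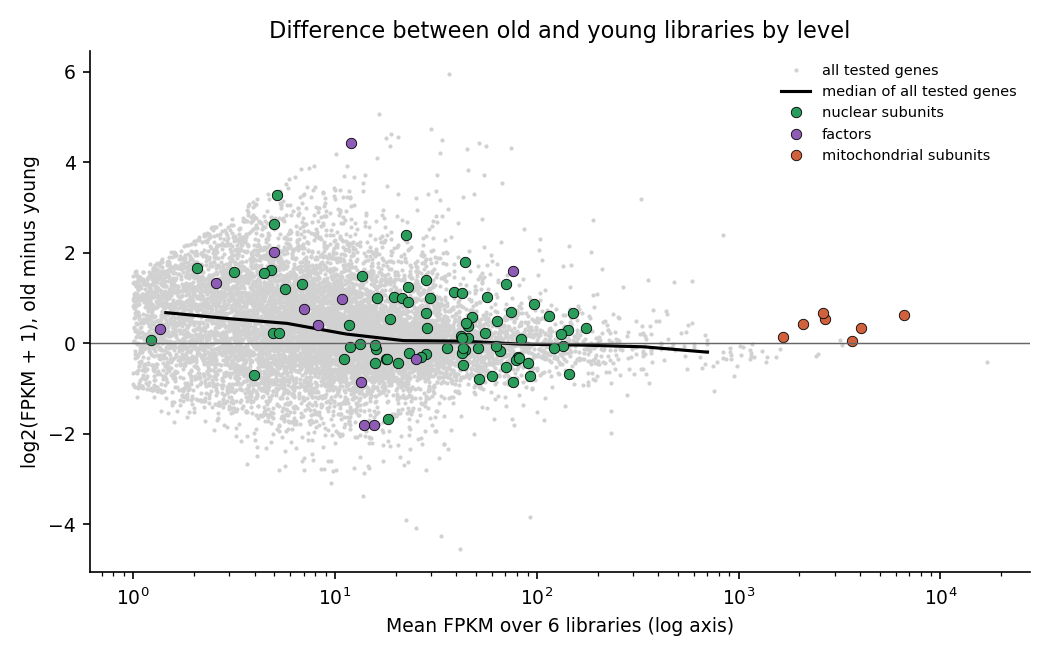
Difference of group means of log2(FPKM + 1), old minus young, against mean FPKM (log axis) for the 10687 genes tested, with the median by level as a line. The 7 mitochondrial members lie between 0.06 and 0.68 at the right of the plot, above most genes of their level, and the nuclear members lie on both sides of 0.

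The summed mitochondrial messages separated the groups narrowly, and their ratio to the nuclear subunits did not. Summed over the 7 genes, they came to 22885, 18757 and 17929 FPKM among young libraries versus 31603, 23116 and 25484 among old ones, so the lowest old sum was just above the highest young one. The 80 nuclear subunits summed to 3428, 4085 and 3356 FPKM among young versus 3070, 4372 and 3632 among old libraries, with full overlap. The ratio of the sums was 6.68, 4.59 and 5.34 among young versus 10.3, 5.29 and 7.02 among old libraries. Old replicate 1 had both the highest mitochondrial and the lowest nuclear sum, while old replicate 2 lay within the young range of the ratio.

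Within complexes the ratios overlapped as well. In complexes III and IV the mitochondrial side was 1 gene each, and complex V had no mitochondrial member here. In complex I the ratio of mitochondrial to nuclear sums was 6.33 ± 1.03 among young versus 7.71 ± 2.46 among old libraries (SD, n = 3). In complex III it was 9.94 ± 3.27 against 15.0 ± 6.48, and in complex IV 8.46 ± 3.32 against 15.4 ± 6.57. Old replicate 1 was the highest library in all 3, and in complex I old replicate 2, at 4.94, was the lowest. The mitochondrial sums of complexes I and III also overlapped between the groups. On the log scale, the median of the mitochondrial members minus that of the tested nuclear subunits was 6.21 ± 0.17 among young versus 6.59 ± 0.58 among old libraries (SD, n = 3), a difference of 0.38. The difference was 0.12 without old replicate 1, 0.70 without old replicate 2 and 0.03 after quantile normalization.

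**Figure D3:**
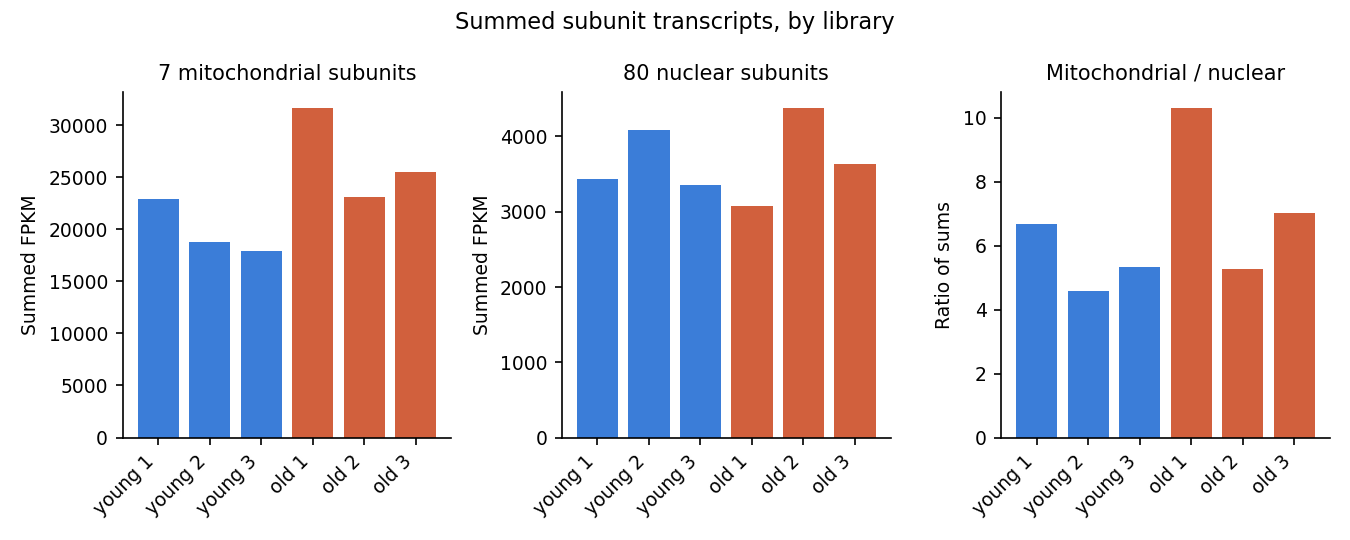
Summed FPKM of the 7 mitochondrial subunits (left) and of the 80 nuclear subunits (middle), and their ratio (right), as bars from 0 for each library. The mitochondrial sums go from 17929 to 31603 and the ratio from 4.59 to 10.3, with old replicate 2 at 5.29 inside the young range.

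Of the 99 members, 98 passed the filter on low values. Ndufb2, a complex I subunit, did not, being at 0 in every young library and reaching 0.345 FPKM at most in an old one. Ndufab1, Ndufa4l2, Cox7a1, Cox6b2, Ndufaf1 and Uqcc3 passed through the old libraries alone, their young means being under 1 FPKM, so for these the sign was set by the filter. Of the 79 nuclear subunits tested, 45 had a positive and 34 a negative log2 change, with a median of 0.19. Of the 79, 36 lay above the median of all genes. Limma called 0 of them, 6 had an unadjusted p under 0.05 and a higher old level, and 0 had one and a lower old level. Over all genes these shares were 4.66% and 1.25%. Groups did not overlap with old above young in 5 of the 79 and with old below young in 1, against 8.78% and 3.42% of all genes. Of the 6, Ndufa4l2 and Cox7a1 had passed through the old libraries alone, and of the 5, Ndufab1 and Ndufa4l2. A count over genes averaging at least 1 FPKM in both groups, added after the data were seen, left 75 subunits. Of these, 41 had a positive log2 change (median 0.12), 4 had an unadjusted p under 0.05 with a higher old level, 3 had old above young and 1 old below. Over the 9213 genes of that kind the shares were 59.1%, 2.77%, 5.46% and 3.77%, and the median was 0.16. At 20 to 200 FPKM, where 53 nuclear subunits lay, their median log2 change was 0.12 against 0.03 for all 2677 genes of that level.

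**Figure D4:**
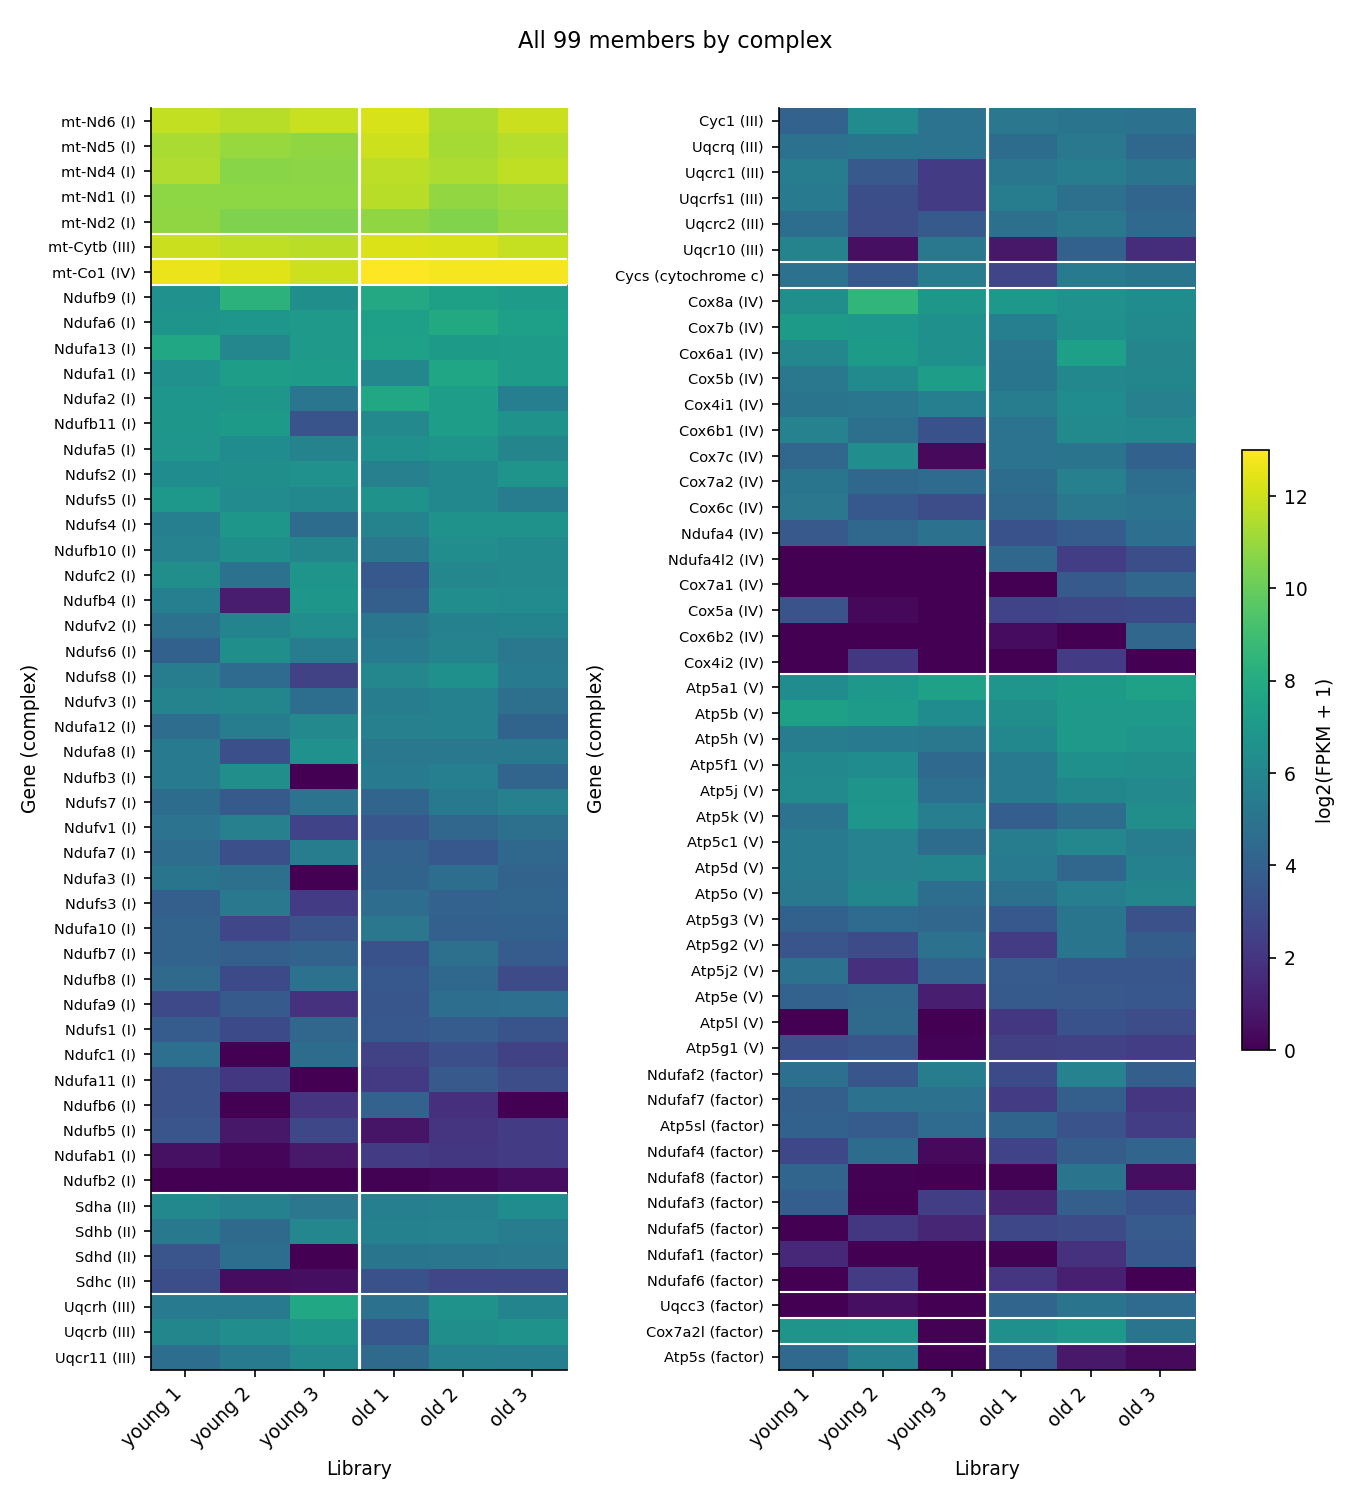
Log2(FPKM + 1) of all 99 members in each library, grouped by genome, complex and class, with the complex or the word factor in brackets. Mitochondrial rows are evenly bright, while many nuclear rows hold single dark cells, most often in young replicate 3.

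Complex I, the NADH dehydrogenase, had 36 nuclear subunits in the table, and 20 of the 35 tested had a positive log2 change (median 0.17). Their mean levels ran from 0.0924 FPKM for Ndufb2 to 176 for Ndufb9. Ndufa6, an accessory subunit on the matrix arm (chromosome 15, 82350140 to 82354322), was at 105, 113 and 130 FPKM among young versus 162, 237 and 161 among old libraries. The groups did not overlap, and the log2 change was 0.66 ± 0.30 (SE; limma adjusted p = 0.839). Ndufs8, which carries iron-sulfur clusters of the electron path, was at 43.3, 22.5 and 4.76 FPKM among young versus 64.2, 90.9 and 40.5 among old libraries. Old replicate 3 lay below young replicate 1. Its log2 change was 1.79 ± 0.69 (SE; limma adjusted p = 0.827), and 0.96 without young replicate 3.

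Ndufa9 and Ndufab1 are complex I genes of lower level, the latter named after its values were seen. Ndufab1, the mitochondrial acyl carrier protein, was at 0.523, 0.114 and 0.882 FPKM among young versus 3.87, 3.24 and 3.84 among old libraries. It has 2 annotated near-identical copies, which leaves its value uncertain. Ndufa9, an accessory subunit near the quinone site, was at 6.38, 11.8 and 2.63 FPKM against 10.01, 24.6 and 26.05, with overlap. Ndufb9, the most abundant nuclear subunit of the complex, was 170 ± 135 FPKM among young versus 181 ± 45.8 among old libraries (SD, n = 3), young replicate 2 alone being at 326.

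Complex II, succinate dehydrogenase, links the citrate cycle to the chain and is wholly nuclear. All 4 of its genes had a positive log2 change, against 61.3% of all genes tested. Their sum was at 121, 99.5 and 99.96 FPKM among young versus 140, 144 and 163 among old libraries, without overlap. Sdhd, a membrane anchor (chromosome 9, 50596357 to 50603812), was at 9.65, 25.3 and 0 FPKM among young libraries versus 31.6, 33.2 and 35.5 among old ones. The old values lay close together above scattered young ones. The log2 change was 2.39 ± 1.02 (SE; limma adjusted p = 0.839) and 1.04 without young replicate 3. Sdhc, the other anchor, was at 7.59, 0.359 and 0.378 FPKM against 8.58, 5.88 and 6.16. The catalytic subunits overlapped, with Sdha at 51.1 ± 15.7 and 59.3 ± 16.8 FPKM and Sdhb at 41.2 ± 21.7 and 49.7 ± 5.60 (SD, n = 3).

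Complex III, which passes electrons to cytochrome c, had 9 nuclear subunits, 3 with a positive and 6 with a negative log2 change, and a median of -0.11. The 3 positive ones were the core proteins Uqcrc1 and Uqcrc2 and the Rieske iron-sulfur protein Uqcrfs1. Uqcrc1 was at 44.9, 11.4 and 3.78 FPKM among young versus 33.6, 44.4 and 31.2 among old libraries. Uqcrc2 was at 25.4, 7.38 and 11.97 against 26.5, 36.3 and 21.02, and Uqcrfs1 was at 39.2, 7.82 and 3.94 against 43.6, 26.5 and 17.6. In all 3, young replicate 1 was level with the old libraries and young replicates 2 and 3 were below them. The most abundant subunits, Uqcrh and Uqcrb, were 100.3 ± 106 and 86.6 ± 29.4 FPKM among young versus 63.2 ± 36.7 and 65.7 ± 48.3 among old libraries (SD, n = 3). The electron carriers showed no separation: Cyc1, cytochrome c1, was 40.9 ± 31.8 against 31.2 ± 3.13 FPKM, and Cycs, cytochrome c, was 27.9 ± 16.2 against 25.8 ± 18.1. Uqcrb has 3 and Cycs 4 near-identical annotated copies.

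Complex IV had 15 nuclear subunits, 10 with a positive log2 change. For 3 of the 10, Ndufa4l2, Cox7a1 and Cox6b2, the filter set the sign, and of the other 12 subunits 7 were positive, with a median of 0.20. Their summed level was 657 ± 206 FPKM among young versus 556 ± 152 among old libraries (SD, n = 3), over all 15. Isoforms known mainly from other tissues were at low level. Cox7a1, the heart and muscle form, was at 0 in every young library versus 0, 11.7 and 18.3 FPKM among old ones, while the common form Cox7a2 was at 31.9, 19.7 and 22.0 against 23.1, 49.0 and 25.4. Cox6b2, the testis form, exceeded 1 FPKM in old replicate 3 alone, at 18.7, while Cox6b1 was 29.9 ± 22.7 against 55.7 ± 22.2 FPKM (SD, n = 3). Cox4i2, the lung form, was seen in young replicate 2 and old replicate 2 alone, at 3.35 and 3.99 FPKM, against 37.8 ± 9.51 and 57.4 ± 18.4 for Cox4i1. In each of these 3 pairs the common form was the higher one in every library.

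Ndufa4l2, a hypoxia-induced relative of the complex IV subunit Ndufa4, was listed at 0 in every young library versus 19.1, 4.11 and 7.86 FPKM among old ones. Being at 0 in every young library was shared by 2.66% of genes tested. The gene overlaps Shmt2 on the other strand, and Shmt2 was at 62.1 ± 13.7 and 97.2 ± 24.7 FPKM (SD, n = 3), also without overlap. Reads of the pair cannot be told apart without strand. Ndufa4 itself was 19.8 ± 8.53 against 15.9 ± 9.25 FPKM, and in old replicate 1, at 8.73, it was below Ndufa4l2.

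Cox7b was the single subunit with every old value below every young one. This X-linked accessory subunit (chromosome X, 106015700 to 106022450) was at 133, 120 and 92.6 FPKM among young versus 47.1, 91.3 and 74.1 among old libraries, a log2 change of -0.73 ± 0.35 (SE; limma adjusted p = 0.839). The lowest young and highest old values nearly met. It has 2 near-identical copies, and young libraries were female and old ones male. The other X-linked members, Ndufa1 and Ndufb11, overlapped. Cox8a, the most abundant nuclear subunit of the complex, was at 85.4, 371 and 116 FPKM against 121, 95.05 and 78.02, and Cox6a1 was 96.4 ± 35.0 against 84.5 ± 68.5 (SD, n = 3).

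Complex V had 15 nuclear subunits, 8 with a positive and 7 with a negative log2 change, and a median of 0.12. The catalytic head overlapped between the groups. Atp5b, the beta subunit, was 128 ± 44.6 against 115 ± 24.9 FPKM, and Atp5a1, the alpha subunit, was 124 ± 45.7 against 138 ± 33.3 (SD, n = 3). Atp5h, subunit d of the peripheral stalk (chromosome 11, 115415689 to 115419962), was at 42.5, 38.4 and 36.3 FPKM among young versus 65.9, 131 and 109 among old libraries. Young values lay close together and all old values were above them. The log2 change was 1.31 ± 0.37 (SE; limma adjusted p = 0.680), and it stayed between 1.10 and 1.59 without any single library. Atp5h has 4 near-identical annotated copies, and whether their reads entered its value is not known. The genes Atp5g1, Atp5g2 and Atp5g3, which encode the same mature ring protein, were 6.02 ± 5.21, 15.1 ± 11.9 and 18.9 ± 3.39 FPKM among young versus 4.55 ± 0.352, 16.6 ± 14.8 and 17.2 ± 13.1 among old libraries.

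Atp5k and Atp5d, the complex V genes next in order of p, had negative log2 changes of -0.79 ± 0.68 and -0.49 ± 0.45 (SE). Atp5k, subunit e, was at 29.7, 114 and 45.7 FPKM against 13.9, 24.3 and 84.6, and Atp5d, the delta subunit of the central stalk, at 38.1, 53.3 and 56.6 against 41.6, 18.8 and 51.0. Both overlapped.

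Among the 12 factors, 8 had a positive log2 change, against 61.3% of all genes. Old lay above young without overlap in 2, Uqcc3 and Ndufaf5, against 8.78%. Uqcc3 and Ndufaf1 passed the filter through the old libraries alone. Of the other 10, 6 were positive and 1 had old above young. Over all genes averaging at least 1 FPKM in both groups these shares were 59.1% and 5.46%. Uqcc3, an assembly factor of complex III needed for cytochrome b (chromosome 19, 8880014 to 8880923, minus strand), was at 0, 0.428 and 0 FPKM among young versus 18.2, 30.7 and 22.4 among old libraries. In fragments this was about 0, 9 and 0 against about 401, 702 and 496. The old values were all far above the young ones. The log2 change was 4.43 ± 0.76 (SE; limma adjusted p = 0.293), with the sign set by that filter. No near-identical copy or overlapping gene was annotated. Its partner message mt-Cytb overlapped between the groups, as given above.

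Ndufaf5, an arginine hydroxylase, and Ndufaf7, an arginine methyltransferase, act in the assembly of complex I. Ndufaf5 was at 0, 3.33 and 1.60 FPKM among young versus 6.03, 6.98 and 12.1 among old libraries. Ndufaf7 had a negative log2 change of -1.80 ± 0.68 (SE; limma adjusted p = 0.799), with values of 14.2, 28.6 and 28.9 against 4.004, 14.5 and 3.12 FPKM, with old replicate 2 level with young replicate 1. Cox7a2l, assigned to complexes III and IV, was at 105, 112 and 0.0591 FPKM among young versus 91.3, 120 and 31.2 among old libraries. Young replicate 3 alone was near 0.

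**Figure D5:**
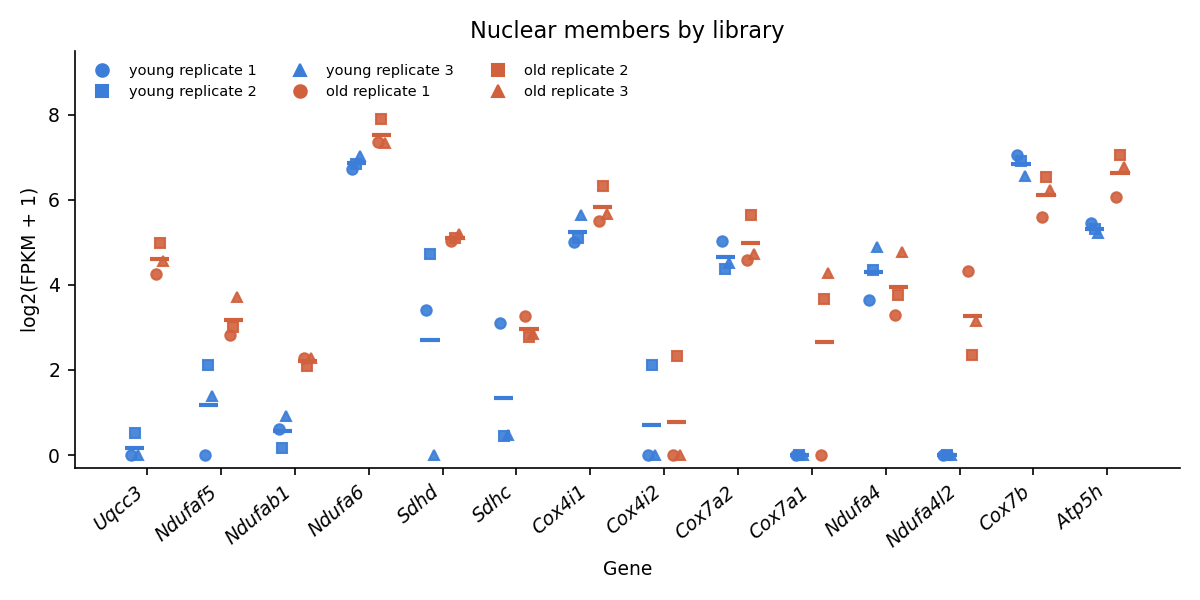
Log2(FPKM + 1) of 14 nuclear members in each library, one marker a library, bars at group means. Old values lie above all young ones for Uqcc3, Ndufaf5, Ndufab1, Ndufa6, Sdhd, Ndufa4l2 and Atp5h and below them for Cox7b, which were chosen for it; the others are isoform pairs and Sdhc.

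The upstream sequence of 3 of these genes is shown as examples of members with separate groups, related to complexes III, II and V. Sdhd and Atp5h each hold 1 NRF1 and 1 GABP match, and Uqcc3 holds none. Each is 250 bases directly before the RefSeq start, 5′ to 3′ on the gene's strand (GRCm38.p6). Capitals mark matches on either strand to a form of the NRF1 motif, GCGCA followed by any 1 base and GCGC, or to CCGGAAG, a form of the GABP motif, and no 2 matches overlap. Uqcc3 lies at chr19:8880934-8881183, minus strand, Sdhd at chr9:50603850-50604099, minus strand, and Atp5h at chr11:115419920-115420169, minus strand.
Uqcc3: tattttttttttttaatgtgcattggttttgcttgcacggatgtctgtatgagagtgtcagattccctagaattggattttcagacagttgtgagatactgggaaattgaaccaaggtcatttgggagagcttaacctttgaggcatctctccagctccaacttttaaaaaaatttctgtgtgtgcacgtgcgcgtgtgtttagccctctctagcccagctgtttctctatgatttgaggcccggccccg
Sdhd: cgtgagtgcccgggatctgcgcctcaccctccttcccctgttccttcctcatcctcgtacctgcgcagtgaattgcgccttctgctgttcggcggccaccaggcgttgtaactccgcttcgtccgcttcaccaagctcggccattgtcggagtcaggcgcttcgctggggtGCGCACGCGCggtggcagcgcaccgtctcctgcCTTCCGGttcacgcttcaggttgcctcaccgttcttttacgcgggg
Atp5h: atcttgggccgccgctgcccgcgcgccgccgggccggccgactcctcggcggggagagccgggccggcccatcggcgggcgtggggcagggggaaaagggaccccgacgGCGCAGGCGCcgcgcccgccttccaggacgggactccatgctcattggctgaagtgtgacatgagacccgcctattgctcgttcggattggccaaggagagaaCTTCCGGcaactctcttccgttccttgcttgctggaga

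NRF1, GABP and YY1 are transcription factors long linked to nuclear genes of the respiratory chain. Of the 92 nuclear members, 74 matched a RefSeq promoter window of 250 bases before to 50 after the start. The NRF1 letters were found in 19 of the 74 (25.7%), against 12.5% of 8304 tested genes with a window and 5.19% of all 27025 genes with one. The GABP letters were in 18 (24.3%), against 21.9% of tested and 9.93% of all genes. The YY1 letters AAGATGGCG were in 8 (10.8%), against 4.01% and 1.64%. In the windows of Ndufa6 and Ndufaf5 an NRF1 match lay after the start, and those of Uqcc3, Cox7b and Ndufab1 held none of the 3. A match is a description of the sequence, not of binding.

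Many nuclear members were close to 0 in single libraries and well measured in others of the same group. The genes given here beside Cox7a2l were picked after their values were seen. Of the 73 nuclear subunits that reached 10 FPKM in some library, 4, 6 and 9 were under 1 FPKM in young replicates 1 to 3, and 3, 1 and 1 in old replicates 1 to 3. In percent these were 5.48, 8.22 and 12.3 among young versus 4.11, 1.37 and 1.37 among old libraries. Each young count includes Cox6b2, Cox7a1 and Ndufa4l2, which were at 0 in every young library and reached 10 FPKM through old libraries alone. These genes are not losses in single libraries, and they widen the contrast between the groups. Over all 8103 genes that reached 10 FPKM the percentages were higher, 10.4, 15.6 and 21.5 among young versus 10.3, 6.32 and 5.33 among old libraries. Cox7a2l had about 2 fragments in young replicate 3 and at least 1243 in each other library. Ndufb3, a complex I subunit, was at 0 in young replicate 3 and between 17.9 and 85.7 FPKM elsewhere, and Ndufc1, another, had about 1 fragment in young replicate 2 and 193 or more elsewhere. Libraries were made from 5 ng of RNA. The lowest of the 6 values was in young replicate 3 for 29 of the 80 subunits. At 20 to 200 FPKM the median spread between replicates was 40.1% of the mean for nuclear subunits and 34.9% for all genes.

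Other mitochondrial genes were read from 6 lists. The genes for copying, transcribing, processing and translating mitochondrial DNA and RNA had a positive log2 change in 24 of 31 tested, with a median of 0.50, and limma called 0. Of the 31, 9 averaged 1 to 5 FPKM and 21 averaged 5 to 20 FPKM, levels at which the medians over all genes were 0.58 and 0.25 and 69.6% and 61.5% were positive. An unadjusted p under 0.05 with a higher old level was found in 4, against 4.66% of all genes. Of the 4, Hsd17b10, Slirp and Fastkd3 passed the filter through the old libraries alone. In the 26 genes averaging at least 1 FPKM in both groups, 20 were positive, with a median of 0.39, and 1 had such a p. Hsd17b10, an X-linked subunit of the enzyme that cuts the 5′ ends of mitochondrial tRNAs, was at 0.0272, 1.89 and 0 FPKM among young versus 21.9, 10.8 and 13.3 among old libraries. Slirp, which stabilises mitochondrial messages together with Lrpprc, was at 0.0413, 0.0199 and 0 against 4.24, 5.22 and 5.68. Both separated the groups, with limma adjusted p of 0.623 and 0.729, and the filter set their direction. Old lay above young without overlap in 4 of the 31, against 8.78% of all genes tested. Among the 26 this held for 1, against 5.46% of all genes averaging at least 1 FPKM in both groups.

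In the citrate cycle and pyruvate list 15 of 22 had a positive log2 change (median 0.41). Dld, the shared dihydrolipoamide dehydrogenase, was at 23.5, 8.18 and 17.8 FPKM among young versus 50.02, 44.995 and 68.2 among old libraries (limma adjusted p = 0.680). Idh3a, a subunit of the NAD-linked isocitrate dehydrogenase, was at 1.74, 16.9 and 0.768 against 22.6, 17.8 and 17.7. Both sets of groups stood apart, for Idh3a by a narrow margin. They were the 2 of 22 genes with old above young, against 8.78% of all genes tested. Assembly factors outside the members had 22 of 36 positive (median 0.22), with Sco1, a copper chaperone of complex IV, at most 0.975 FPKM among young and no less than 2.49 among old libraries, and Cox16 at 0 among young versus 9.28, 0.398 and 3.36 among old libraries. Sco1 and Cox16 also passed through the old libraries alone, as did Bcs1l, Cox17 and Lyrm7, so the filter set their direction. Of the 30 such factors averaging at least 1 FPKM in both groups, 17 were positive, with a median of 0.16. Over all genes with that average 59.1% were positive, and the median was also 0.16.

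Carriers and porins had 7 of 10 positive (median 0.39). Slc25a5, an ADP/ATP carrier, was 139.6 ± 54.1 against 94.5 ± 53.6 FPKM and the aspartate-glutamate carrier Slc25a12 was 7.37 ± 6.78 against 11.8 ± 3.10 (SD, n = 3). Of the cristae genes 8 of 10 were positive (median 0.62), with Phb2, a prohibitin, at 5.27 ± 6.08 against 13.7 ± 3.81. Apool and Chchd6 passed the filter through the old libraries alone, so it set their direction. Of the other 8 cristae genes 6 were positive, with a median of 0.36. Opa1, the inner membrane fusion GTPase, had lower old values, at 21.4, 24.1 and 34.7 FPKM against 16.0, 15.4 and 16.7, without overlap. Among regulators 5 of 9 were positive (median 0.11). Gabpb2, a GABP subunit, was at 8.01, 12.7 and 11.5 FPKM against 21.5, 21.7 and 19.8, without overlap, while Yy1 was 40.1 ± 12.6 against 21.4 ± 14.2, with overlap. Limma called 0 genes in any of these lists. Over all genes tested 61.3% were positive, with a median of 0.23. Opa1 was the 1 of 10 cristae genes with old below young, and Gabpb2 the 1 of 9 regulators with old above young. Over all genes tested these shares were 3.42% and 8.78%.

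Marker sums of other cell types are given beside the mitochondrial sums. Erythroid markers summed to 281, 0.336 and 173 FPKM among young versus 164, 39.95 and 841 among old libraries, and neutrophil markers to 354, 562 and 409 against 258, 1197 and 653. The mitochondrial sum was highest in old replicate 1, where the sums of neutrophil and cycling markers were lowest. Not every marker was low there. The neutrophil genes Elane and Ltf, at 19.7 and 21.7 FPKM, were above every young library. Plasmacytoid dendritic markers, at 179 FPKM, had the highest sum of the old libraries, but Cox6a2 alone made up 119 FPKM of it. Of the other markers in that list, Siglech and Bst2 were at their lowest old value there, and Ccr9 and Tcf4 at their highest. The part of other cells in the mitochondrial sums was not tested. For Cox7a1 and Cox6b2, highest in old replicate 3, the part of other cells in their values was not tested.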

How the data were processed

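RNA of sorted bone marrow plasma cells was sequenced in 6 libraries, 3 young and 3 old, with 5 ng input and a kit for stranded total RNA, per the labels' protocols. The authors deposited 1 table of FPKM values with one column per library, matched to samples by title. The submitters' processing notes name bcl2fastq 2.17, STAR and DESeq2 and the builds GRCm38 and mm10 without roles. Counter, annotation release and use of strand: not given in the sources used here.

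Log2(FPKM + 1) was fitted with limma 3.58.1 (R 4.3.3) with a mean-variance trend over genes averaging at least 1 FPKM, two-sided, with Benjamini-Hochberg adjustment over all 10687. Fold changes on this scale understate those of low genes. Mean ± SD is over 3 libraries. Sums, ratios and medians over members have no test. FPKM is not a count, so fragments were estimated from the lowest steps of FPKM times merged exon length in GENCODE M21 (GRCm38; 99.9% of identifiers matched), and cover counting error only. Near-identical copies were annotated transcripts of another gene at 95% identity or more over at least 60% of the shorter transcript and 200 bases. Python 3.11.15 and pandas 2.3.3 were used for tables.

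Members and lists were chosen with earlier results of these data known. Named genes were the 7 mitochondrial members, the 7 members named singly in the rule, per complex the 2 most abundant and the 3 of smallest p, the isoform families, and 2 of smallest p among complex I assembly factors and in each list. Alternatives were another pseudocount, other filters, 3 scalings, a replicate block and leaving out each library. Same-numbered libraries did not deviate together (correlations of -0.034, 0.020 and -0.0041). The replicate numbers were not stated to pair libraries, and the main fit used no pairing. With the large spread between replicates, such correlations cannot exclude that same-numbered libraries were handled together.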

Additional observations from a re-analysis of the deposited data

How the results depend on the processing

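Limma called 0 genes under 12 of 13 alternatives and 1, the histone gene Hist1h3f, after quantile normalization, and 0 of the named genes under any of them. With the replicate number as a block, 0 genes were called and 571 had an unadjusted p under 0.05, and the difference between mitochondrial and nuclear subunits was 0.38 as before. That difference ranged from 0.026 to 0.70 over all alternatives, lowest with quantile normalization and highest without old replicate 2. Counts of positive log2 changes, whose alternatives were added after the data were seen, ranged from 5 to 7 of the 7 mitochondrial members and from 39, among the 72 nuclear subunits averaging at least 5 FPKM, to 58. The log2 change of mt-Nd6 was -0.045 with median-ratio scaling, -0.14 with quantile normalization, and -0.13 to 0.31 without single libraries, being negative without young replicate 2 (-0.036), old replicate 1 (-0.13) or old replicate 3 (-0.015). It was the 1 gene of 18 followed that changed sign. The median log2 change of all genes moved from 0.23 to 0.14 with median-ratio scaling and to 0.01 with quantile normalization. Without single libraries the counts of positive changes were 6 to 7 and 43 to 58. A mean of at least 5 FPKM gave no value for Ndufab1. Values of a few fragments cannot show a difference at this depth.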

Other observations

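The proportions among mitochondrial messages differed between libraries. The ratio of mt-Co1 to mt-Nd2 was 3.38, 3.69 and 2.78 in young and 5.23, 4.94 and 3.69 in old libraries, the lowest old value being just above the highest young one. The ratio of mt-Nd6 to its neighbour mt-Nd5 was 1.37, 1.54 and 2.13 in young and 1.13, 1.06 and 1.36 in old libraries. Here the highest old value was just below the lowest young one. As a light-strand gene, mt-Nd6 lies opposite mt-Nd5, and use of strand in counting was not given. Its value may therefore hold reads of the other strand. Both ratios were picked after their values were seen and have no test.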
